A study of Fagopyrum tataricum with 9 samples.

Results

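The 10 chitinase genes of Tartary buckwheat (Fagopyrum tataricum) described here lie close together in 3 groups, on chromosomes 3, 8 and 1, and were followed through seed development. The members were a fixed list of 10 gene IDs out of 33931 genes with counts. They were chosen by name and position, with earlier results of these data known. Some chitinase models beside the groups are not members and are described further below. The Ft3 group holds 5 of them, the Ft8 group 3 and the Ft1 group 2, and each copy is lettered here along its chromosome. A Swiss-Prot match named chitinase was found for 23 gene models in all, so 13 such models are not members.

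RNA was sequenced from whole seeds of the variety MIQIAO 1 at 3 stages, with 3 libraries each: green fruit, then discoloration, then initial maturity. Sampling days were 13, 19 and 25 days post anthesis per the labels, matched to the stages here by developmental order only. The labels name no treatment or mutation, and all libraries come from field-grown plants of the same variety. According to the labels, the replicates are 3 plants and a plant gave seeds of all stages, but which library came from which plant is not told.

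Chitinases cut chitin, the polymer of N-acetylglucosamine in fungal cell walls and insect cuticles, and plants make them in seeds and in tissues under attack. Plant chitinases fall into families with unrelated catalytic folds. One family includes the EP3 chitinases, of which a carrot member restores embryo formation in a mutant cell culture and is made in cells around the embryo rather than in it. Another, called class III, includes hevamine of the rubber tree and shares no catalytic fold with the first.

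All 5 Ft3 copies and both Ft1 copies carry the deposited KEGG name of the carrot EP3 homologue and match rice chitinases. The 3 Ft8 copies match a basic endochitinase of tobacco, a class III enzyme, and carry the name chitinase A, CHIA. Deposited function terms name chitinase activity for each Ft3 and Ft1 copy, and chitin binding for the Ft3 copies and Ft1-A. Chitin binding was not listed for Ft1-B, and no Ft8 copy carried either term. These names are best matches in other species, not tests of activity in buckwheat.

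On chromosome 3 the copies all lie on the minus strand within 40386 bases. Ft3-A (FtPinG0004181500.01) spans 57122861 to 57123818, Ft3-B (FtPinG0004181300.01) 57128896 to 57143165 and Ft3-C (FtPinG0004181100.01) 57155328 to 57156678. Ft3-D (FtPinG0004180900.01) follows at 57158491 to 57159971 and Ft3-E (FtPinG0004180700.01) at 57162230 to 57163246. Ft3-B differs from its neighbours in size, with 1949 bases of exon in a span of 14270 bases, against 807 to 930 exon bases in the others.

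The Ft8 copies lie within 6790 bases near the start of chromosome 8 and do not share a strand. Ft8-A (FtPinG0002343000.01) spans 435451 to 436414 on the plus strand, Ft8-B (FtPinG0002342700.01) 437441 to 438454 on the minus strand and Ft8-C (FtPinG0002342600.01) 441305 to 442240 on the plus strand. On chromosome 1, Ft1-A (FtPinG0006445900.01) spans 17149335 to 17150479 and Ft1-B (FtPinG0006446100.01) 17152591 to 17153396, both on the plus strand. Positions were taken from the deposited gene table, and its genome build is not given in the sources used for this work.

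Each library held 21585045 to 26777643 counts. Within every stage 1 library stood apart from the others: green fruit 1, discoloration 1 and initial maturity 2. The 2 close libraries of a stage differed by a chi-square of 1.98 to 3.54 per degree of freedom over genes, above the value of 1 that sampling noise gives, and pairs with the library that stood apart gave 42.5 to 255. All 9 were treated as separate replicates, as labelled, and whether the close ones come from separate plants was not tested. Results that rest on a library that stands apart are given with and without it. Counts of 16 seed storage genes took 8.80, 3.04 and 3.12% of a library in green fruit, 21.1 to 21.5% at discoloration, and 24.7, 15.6 and 24.9% at initial maturity. Counts of 21 green tissue genes took 0.249 to 0.706%, 0.0502 to 0.0765% and 0.00412 to 0.00484%. Counts of 14 genes of vascular and hull walls took 0.0180, 0.158 and 0.163% in green fruit, 0.00300 to 0.00497% at discoloration and 0.00134 to 0.00143% at initial maturity. Green fruit library 1 was thus higher in storage and lower in wall transcripts than libraries 2 and 3. Of 9 pollen genes, 7, 8 and 7 had no count in the 3 stages. Together the 9 took 0.00114 to 0.00237%, 0.000509 to 0.000750% and 0.00173 to 0.00286%. The part of these shifts in the results was not tested, and in whole seeds fewer cells of a type and less RNA per cell cannot be told apart.

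Levels are given as TMM-scaled CPM, library-scaled counts after the trimmed mean of M-values (TMM) correction. This scaling set the median log2 change of all 23631 genes tested at -0.04 for discoloration over green fruit, -0.02 for initial maturity over discoloration and -0.06 for initial maturity over green fruit. Scaling by library totals alone moved those medians to -1.03, -0.37 and -1.39. The share of higher genes among all genes called was 49.5, 43.9 and 46.6% with TMM, and 10.2, 20.8 and 10.7% with library totals. Changes of the copies below are relative to the TMM median, and directions that flip with library totals are named. How the counting treated reads that match more than 1 gene is not stated, so values of any near-identical copies are uncertain.

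Ft3-E rose in both steps and had the highest level per gene length of the 10 copies at initial maturity. It had 0.550, 0.0816 and 0 CPM in the green fruit libraries 1 to 3, from 20, 4 and 0 counts. At discoloration it had 47.5, 7.68 and 7.85 CPM, and at initial maturity 446.7, 338.7 and 472.0 CPM. The libraries of the 3 stages did not overlap at any step, although discoloration library 1 stood far above the others of its stage. In edgeR's quasi-likelihood fit, Ft3-E rose by a log2 fold change of 6.68 ± 1.12 (SE) at discoloration over green fruit (adjusted p = 0.00183, n = 3 libraries each). It rose again by 4.32 ± 0.93 at initial maturity over discoloration (edgeR adjusted p = 0.00694). Initial maturity over green fruit came to 11.0 ± 1.28 (edgeR adjusted p = 9.96e-05). Without discoloration library 1 the 2 steps were 5.25 and 5.75, and without green fruit library 1 the first step was 8.72 and the whole change 13.03. All of these passed the threshold.

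Ft3-C, which matches rice chitinase 4, rose in both steps. It had 0.110, 0.0612 and 0 CPM in green fruit, from 4, 3 and 0 counts, and 0.816, 0.977 and 0.841 CPM at discoloration. At initial maturity it had 30.1, 19.2 and 32.9 CPM. No library of one stage overlapped with those of another. The log2 fold change was 3.86 ± 0.54 at discoloration over green fruit (edgeR adjusted p = 0.00078), 4.95 ± 0.38 at initial maturity over discoloration (edgeR adjusted p = 0.000134) and 8.81 ± 0.49 over both steps (edgeR adjusted p = 4.02e-06). The first of these rests on 7 green fruit counts in all. Without green fruit library 1, from which 4 of them came, it was 4.51 and the whole change 9.46.

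Ft3-B, the copy with the long span, rose in the first step and did not pass the test in the second. Its values were 1.68, 1.33 and 0.995 CPM in green fruit, 16.4, 18.8 and 18.5 CPM at discoloration, and 15.7, 8.78 and 16.2 CPM at initial maturity. All discoloration libraries lay above all green fruit libraries. Initial maturity libraries 1 and 3 lay slightly below those of discoloration, and library 2 lay well below them. Ft3-B rose by 3.74 ± 0.29 at discoloration over green fruit (edgeR adjusted p = 3.95e-05). Initial maturity over discoloration was -0.40 ± 0.25, which did not pass (edgeR adjusted p = 0.243). Initial maturity over green fruit was 3.34 ± 0.28 (edgeR adjusted p = 1.95e-05).

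Ft3-A, next to it, rose in the first step with a call that rested on single libraries. It had 1.13, 0.592 and 0.561 CPM in green fruit, 3.57, 5.91 and 5.89 CPM at discoloration, and 3.57, 0.190 and 4.06 CPM at initial maturity. The discoloration libraries lay above those of green fruit, while initial maturity overlapped with both because of its library 2. Ft3-A rose by 2.75 ± 0.76 at discoloration over green fruit (edgeR adjusted p = 0.0179). That call was lost when green fruit library 2 or 3 or discoloration library 2 or 3 was left out, with edgeR adjusted p from 0.0528 to 0.0595, and with library totals (1.81, adjusted p = 0.0509). Initial maturity over discoloration was -0.98 ± 0.72 and did not pass (edgeR adjusted p = 0.312). Initial maturity over green fruit was 1.78 ± 0.76 (edgeR adjusted p = 0.0666), and passed at 2.33 without initial maturity library 2 (edgeR adjusted p = 0.00146) and at 2.17 without green fruit library 1 (edgeR adjusted p = 0.0381).

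Ft3-D varied widely within every stage. It had 19.1, 1.53 and 1.63 CPM in green fruit, 6.84, 33.4 and 32.9 CPM at discoloration, and 73.8, 20.2 and 75.0 CPM at initial maturity. Green fruit library 1 was high while discoloration 1 and initial maturity 2 were low, and neighbouring stages overlapped. Neither step passed, with 1.72 ± 1.00 at discoloration over green fruit (edgeR adjusted p = 0.202) and 1.21 ± 0.98 at initial maturity over discoloration (edgeR adjusted p = 0.36). Initial maturity over green fruit was 2.93 ± 1.04 (edgeR adjusted p = 0.0345). Leaving out green fruit 2 or 3, or initial maturity 1 or 3, ended that call (edgeR adjusted p from 0.0801 to 0.0832), as did library totals (1.76, adjusted p = 0.117). Without green fruit library 1, the change was 3.95 at discoloration over green fruit (edgeR adjusted p = 0.00339) and 5.15 at initial maturity over green fruit (edgeR adjusted p = 0.000574).

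**Figure D1:**
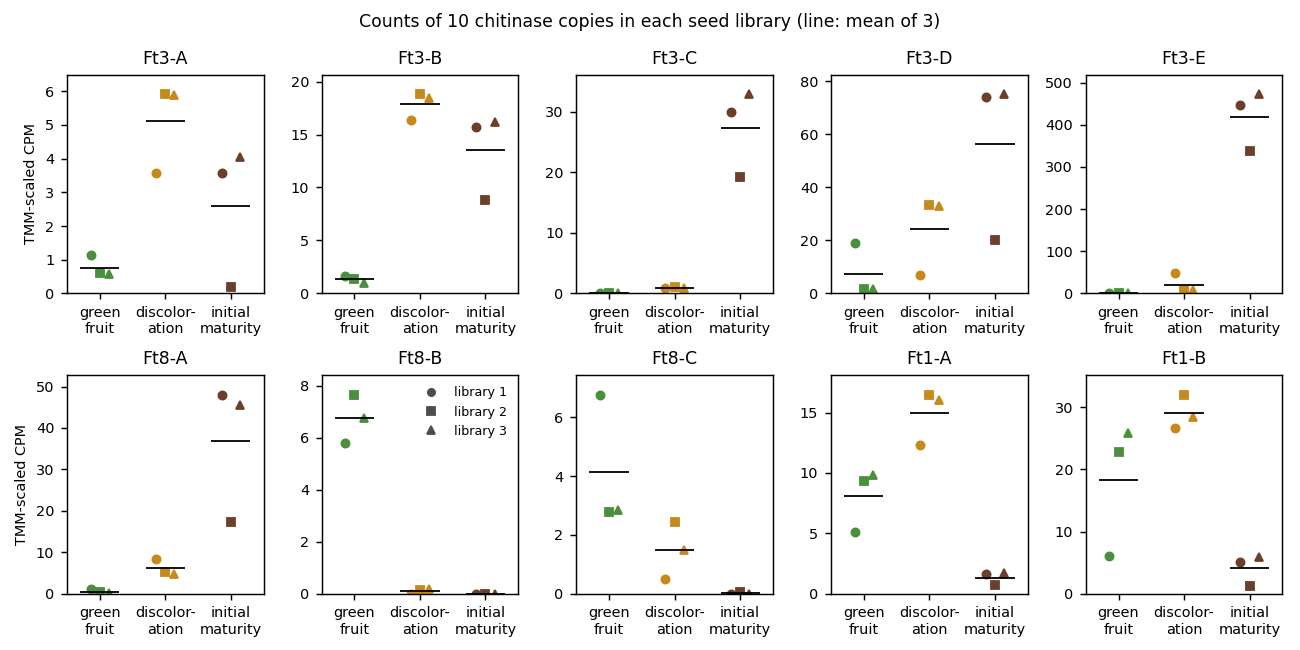
TMM-scaled CPM of each of the 10 copies, one panel per copy with its own linear axis, in the 3 libraries of each stage (circle, square and triangle are libraries 1, 2 and 3; the line is their mean). Ft3-E lies between 338.7 and 472.0 CPM at initial maturity and Ft8-B is at 0 there, while both Ft1 copies have their highest mean at discoloration with this scaling; with library totals the first step of the Ft1 copies has the opposite sign.

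The 3 Ft8 copies did not change in one direction. Ft8-A had 1.02, 0.326 and 0.230 CPM in green fruit, 8.32, 5.24 and 4.72 CPM at discoloration, and 48.0, 17.2 and 45.7 CPM at initial maturity. Its stages did not overlap. It rose by 3.56 ± 0.58 at discoloration over green fruit (edgeR adjusted p = 0.00165) and by 2.60 ± 0.51 at initial maturity over discoloration (edgeR adjusted p = 0.00479). The whole change was 6.16 ± 0.62 (edgeR adjusted p = 4.66e-05). Without green fruit library 1 the first step was 4.41 and the whole change 7.01.

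Ft8-B, on the opposite strand about a kilobase away, was counted almost wholly in green fruit. It had 5.80, 7.65 and 6.76 CPM there, from 211, 375 and 265 counts, then 0, 3 and 4 counts at discoloration and 0 counts in each initial maturity library. Every green fruit library lay above every later one. Ft8-B reached the filter's minimum of 10 counts in green fruit libraries alone, so it could enter the test only through the stage in which it was high, and its differences are given as a description with no p. The fitted log2 difference of discoloration from green fruit was -5.88, and -6.48 without discoloration library 3. At initial maturity Ft8-B was at least 35.2-fold lower than in green fruit, taking 3 counts in each library as the limit that a count of 0 allows. These limits cover counting error only. Initial maturity against discoloration gave no fold, since both were near 0.

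Ft8-C was also lowest at initial maturity. Its values were 6.77, 2.77 and 2.86 CPM in green fruit and 0.510, 2.44 and 1.50 CPM at discoloration, and its counts at initial maturity were 0, 1 and 0. Discoloration lay below green fruit in all libraries, but discoloration library 2 came close to the lower green fruit libraries. The first step was -1.47 ± 0.58 and did not pass (edgeR adjusted p = 0.0712), although it passed with DESeq2 (-1.53, adjusted p = 0.0444) and with library totals (-2.38, adjusted p = 0.00391). The initial maturity level was lower than that of discoloration (edgeR adjusted p = 0.00355) and of green fruit (edgeR adjusted p = 0.000256). The ratio of green fruit to initial maturity was 187, with a 95% counting interval of 33.3 to 7386, and that of discoloration to initial maturity was 71.9, with an interval of 12.6 to 2867. The single initial maturity count was in library 2, and without it the stage held none.

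Both Ft1 copies were lowest at initial maturity. Ft1-A had 5.14, 9.32 and 9.82 CPM in green fruit, 12.3, 16.5 and 16.0 CPM at discoloration, and 1.59, 0.695 and 1.67 CPM at initial maturity. Ft1-B, the shorter copy, had 6.0, 22.8 and 25.9 CPM in green fruit, 26.7, 32.0 and 28.5 CPM at discoloration, and 5.16, 1.26 and 5.86 CPM at initial maturity. In both, the initial maturity libraries lay below all others. In green fruit, library 1 was the lowest for both copies, and it was close to the initial maturity libraries 1 and 3 for Ft1-B.

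At initial maturity over discoloration, Ft1-A fell by 3.50 ± 0.37 on the log2 scale (edgeR adjusted p = 0.000343) and Ft1-B fell by 2.83 ± 0.61 (edgeR adjusted p = 0.00706). At initial maturity over green fruit, Ft1-A fell by 2.61 ± 0.36 (edgeR adjusted p = 0.000249) and Ft1-B fell by 2.16 ± 0.60 (edgeR adjusted p = 0.0112). The earlier step was small and depended on the scaling. At discoloration over green fruit Ft1-A was 0.88 ± 0.31 (edgeR adjusted p = 0.0486), and this call was lost without any one of 7 of the 9 libraries (edgeR adjusted p from 0.058 to 0.139), green fruit 1 and initial maturity 2 being the exceptions. Its sign turned with library totals (-0.13) and on deposited FPKM (-0.06). Ft1-B was 0.67 ± 0.55 and did not pass (edgeR adjusted p = 0.362), with -0.37 by library totals and -0.07 on FPKM.

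At discoloration over green fruit 6 of the 10 copies were called higher and 1 lower at an adjusted p under 0.05, where 39.5% of all genes tested were called, 19.5% higher and 19.9% lower. At initial maturity over discoloration 3 were called higher and 3 lower, against 36.4% of all genes, 16.0% higher and 20.4% lower. At initial maturity over green fruit 5 were called higher and 4 lower, against 60.8% of all genes, 28.3% higher and 32.5% lower. All 10 copies passed the filter on low counts. The list was chosen with earlier results of these data known, so these counts describe a chosen set. The median log2 change of the copies was 2.24, -0.69 and 2.35 in these comparisons, against -0.04, -0.02 and -0.06 for all genes. The fitted values of Ft8-B and Ft8-C, which have almost no counts late, enter these medians by rank. At initial maturity over discoloration the median lies between Ft3-A (-0.98) and Ft3-B (-0.40). Without Ft8-B and Ft8-C the middle copies are Ft3-B and Ft3-D (1.21), so the sign of that median rests on them. The copy called lower at discoloration over green fruit, and 1 of the 4 called lower at initial maturity over green fruit, was Ft8-B, which could enter only through green fruit. Comparisons of neighbouring stages share the discoloration libraries, and both comparisons with green fruit share the green fruit libraries.

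With the close libraries of a stage added together as 1 sample, 2 samples a stage were left. At discoloration over green fruit 5 copies were then called, against 11.7% of all genes, and the calls of Ft3-A and Ft1-A were lost (edgeR adjusted p = 0.172 and 0.22). In all, 2 were called at initial maturity over discoloration, Ft3-C and Ft1-A, against 6.77% of all genes. Adjusted p in that edgeR fit was 0.0796 for Ft3-E, 0.0851 for Ft8-A, 0.0522 for Ft8-C and 0.0728 for Ft1-B. A total of 7 were called at initial maturity over green fruit, against 37.4% of all genes, and the calls of Ft3-D and Ft1-B were lost (edgeR adjusted p = 0.193 and 0.0791). The 5 and the 7 include Ft8-B, which could enter only through green fruit.

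With the 3 libraries that stand apart left out, 9, 9 and 10 copies were called in the 3 comparisons, where 74.0, 67.6 and 80.7% of all genes were called. Each of these counts includes Ft8-B, which could enter the test only through green fruit. Its second step there compares 3 and 4 counts with 0 and is not read as a change. The copy without a call was then Ft8-C at discoloration over green fruit and Ft3-B at initial maturity over discoloration (edgeR adjusted p = 0.0563 and 0.0604).

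**Figure D2:**
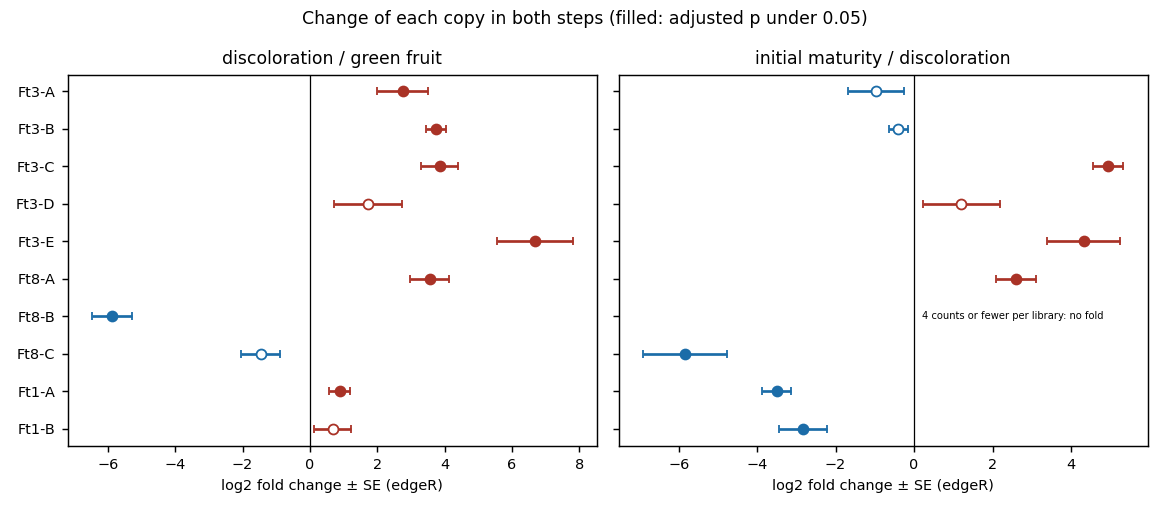
Log2 fold change ± SE of each copy from edgeR at discoloration over green fruit (left) and at initial maturity over discoloration (right), with filled points for adjusted p under 0.05 (n = 3 libraries per stage). Ft3-C, Ft3-E and Ft8-A are filled and positive in both panels, and the Ft1 copies are negative on the right; the sign of the Ft1 copies on the left turns with library totals, Ft8-B has no fold on the right, and it could enter the test only through green fruit.

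Whether a copy moved differently in the 2 intervals was tested as the second step minus the first. Of the 10 copies, 3 passed, all with a more negative second step, against 20.0% of all genes called, 6.58% higher and 13.4% lower. The difference was -4.14 ± 0.43 for Ft3-B (edgeR adjusted p = 0.000578), -4.38 ± 0.54 for Ft1-A (edgeR adjusted p = 0.00116) and -3.50 ± 0.93 for Ft1-B (edgeR adjusted p = 0.0289). The call of Ft1-B was lost without any one discoloration library or initial maturity library 1 (edgeR adjusted p from 0.0514 to 0.104). It was also lost with library totals (-2.78, adjusted p = 0.0695), with limma on FPKM (adjusted p = 0.0614) and with the close libraries added together (edgeR adjusted p = 0.181). That last setting ended the call of Ft1-A as well (edgeR adjusted p = 0.0673), while Ft3-B passed in it (edgeR adjusted p = 0.0477). Ft3-A was -3.73 (edgeR adjusted p = 0.055) and passed without green fruit library 1 (adjusted p = 0.0222) or initial maturity library 2 (adjusted p = 0.00917). Ft8-C was -4.38 (edgeR adjusted p = 0.0651) and passed without green fruit library 1 (adjusted p = 0.0222) or discoloration library 1 (adjusted p = 0.0347).

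Neighbouring copies were then compared directly. The log2 ratio of their counts was taken within each library. To each count 0.5 was added, scaled to the library size after TMM correction, so that each library gained the same share. The scaling between libraries thus cancels except in ratios with counts near 0, which depend on the amount added. An exact permutation of the stage labels over all distinct assignments of the 9 libraries tested whether the ratio differed between stages. There were 7 neighbouring pairs, and the smallest p that the design allows is 0.00357. Of these, 6 passed at an unadjusted p under 0.05 and also after Benjamini-Hochberg adjustment over the 7 pairs. The permutation takes the 9 libraries as independent and ignores plants, since which library came from which plant is not told. With the close libraries of a stage added together the smallest possible p is 0.0667, so no pair could pass. Both pairs with Ft8-B are among the 6. Their p is not read here, because Ft8-B had no count at initial maturity and the ratios there are set by the 0.5 added. Both still count in the adjustment over the 7 pairs, so the adjusted p of the other pairs depend on them.

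In the Ft3 group 2 of the 4 neighbouring pairs changed sign between stages, in counts not corrected for gene length. Ft3-D over Ft3-C and Ft3-B over Ft3-A were positive in all 9 libraries. Ft3-B has 1949 bases of exon against 870 in Ft3-A, which raises its counts. In FPKM, Ft3-A lay above Ft3-B in green fruit libraries 1 (1.94 against 1.29) and 3 (1.17 against 0.927). The 2 were near equal in green fruit library 2, and Ft3-B lay above in all later libraries. Ft3-E over Ft3-D was -5.07, -3.94 and -6.43 in green fruit, 2.79, -2.12 and -2.06 at discoloration, and 2.60, 4.06 and 2.65 at initial maturity (exact permutation p = 0.0107, adjusted 0.015). Ft3-E was below Ft3-D in every green fruit library and above it in every initial maturity library, with discoloration split between library 1 and the others. In green fruit library 3 Ft3-E had no count, so the ratio there is set by the count added. Ft3-C over Ft3-B averaged -4.50 ± 1.08, -4.32 ± 0.10 and 1.03 ± 0.09 (SD, n = 3; exact permutation p = 0.0357, adjusted 0.0417). That ratio changed sign between discoloration and initial maturity in all libraries, while the first 2 stages overlapped. Ft3-C also had no count in green fruit library 3. The green fruit means of this pair and of Ft3-D over Ft3-C thus rest in part on the count added.

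Ft3-D over Ft3-C averaged 5.97, 4.45 and 0.85 in the 3 stages, green fruit first (exact permutation p = 0.0107, adjusted 0.015). Ft3-B over Ft3-A averaged 0.84, 1.83 and 3.17 (exact permutation p = 0.0107, adjusted 0.015). The last mean rests on initial maturity library 2, at 5.40 against 2.13 and 1.99 in libraries 1 and 3. Without any one green fruit or discoloration library the exact permutation p of this pair was 0.0821 to 0.132.

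In the Ft8 group, Ft8-B over Ft8-A was 2.49, 4.47 and 4.77 in green fruit, and -5.11 and -4.52 in discoloration libraries 2 and 3. In discoloration library 1 and at initial maturity Ft8-B had no count, so the ratios there are set by the 0.5 added and are not measured levels. At initial maturity Ft8-A had 754, 272 and 709 counts in libraries 1 to 3. No p is given for Ft8-B over Ft8-A. Ft8-C over Ft8-B was 0.22, -1.46 and -1.24 in green fruit and 4.01 and 2.88 in discoloration libraries 2 and 3, while Ft8-B had no count in library 1. At initial maturity both copies had at most 1 count in a library, so their ratio there carries no measurement and no p is given.

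The Ft1 pair was the one whose ratio did not pass. Ft1-B over Ft1-A was 0.22, 1.29 and 1.40 in green fruit, 1.11, 0.96 and 0.83 at discoloration, and 1.68, 0.84 and 1.80 at initial maturity (exact permutation p = 0.443). The means were 0.97 ± 0.65, 0.97 ± 0.14 and 1.44 ± 0.52 (SD, n = 3). Ft1-B had more counts than Ft1-A in all 9 libraries, and a difference in ratio of the size of this spread could not be seen with 3 libraries a stage.

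**Figure D3:**
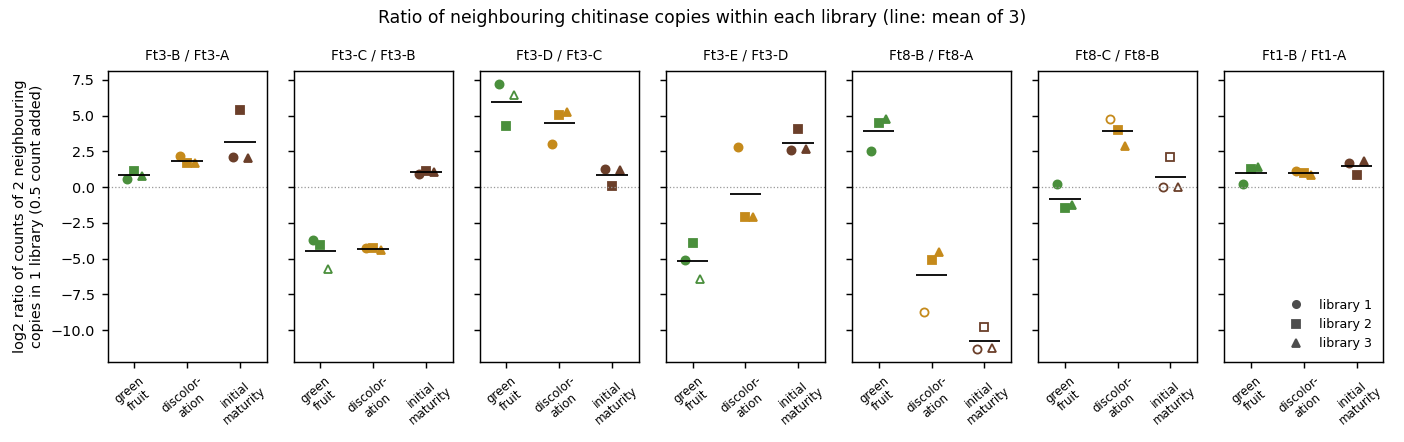
Log2 ratio of the counts of neighbouring copies within each library, one panel per pair on a common axis. A count of 0.5, scaled to the library, was added, and gene length was not corrected for. Libraries 1, 2 and 3 are circle, square and triangle, and the line is the stage mean. Hollow points have no count of 1 or both copies and are set by the count added. Ft3-E over Ft3-D runs from below 0 in green fruit to above 0 at initial maturity, Ft8-B over Ft8-A is above 0 in green fruit and below 0 later, where most of its points are hollow, and Ft1-B over Ft1-A stays between 0.22 and 1.80.

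Levels of different copies can be set side by side only per gene length, for which the deposited FPKM values (fragments per gene length and sequencing depth) were used. In green fruit the order of mean FPKM was Ft1-B at 45.3 ± 28.6, Ft1-A at 17.1 ± 6.79, Ft3-D at 13.6 ± 17.6, Ft8-B at 12.7 ± 2.94 and Ft8-C at 7.26 ± 3.08 (SD, n = 3). The ranges of neighbours in this order overlapped. Ft8-C lay above Ft3-A, the next copy at 1.45 ± 0.42, in all green fruit libraries, and the other 4 copies were at 0.114 to 1.15.

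At discoloration Ft1-B led with 34.9 ± 4.38 FPKM, followed by Ft3-D at 25.4 ± 16.2, Ft3-E at 19.0 ± 20.1 and Ft1-A at 15.6 ± 2.90, again with overlapping neighbours. Ft3-B at 7.93 ± 0.87, Ft8-A at 5.41 ± 1.50 and Ft3-A at 5.12 ± 1.50 overlapped with each other and lay below Ft1-A. Ft8-C, Ft3-C and Ft8-B were at 1.39, 0.941 and 0.102.

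At initial maturity Ft3-E stood above every other copy in all libraries, at 307.3 ± 66.2 FPKM. Ft3-D at 46.2 ± 26.9, Ft8-A at 26.4 ± 13.2 and Ft3-C at 23.2 ± 7.08 came next with overlapping neighbours. Ft3-B at 4.77 and Ft1-B at 3.94 were far below, as were Ft3-A at 2.09 and Ft1-A at 1.09. The 10 copies summed to 99.8 ± 15.8 FPKM in green fruit, 115.8 ± 5.88 at discoloration, then 415.1 ± 119 at initial maturity. FPKM is not corrected for composition, so these sums are not changes relative to the TMM median. In TMM-scaled CPM the stage means, green fruit first, were 9.79, 69.3 and 519 for the Ft3 group. For the Ft8 group they were 11.4, 7.68 and 37.0, and for the Ft1 group 26.3, 44.0 and 5.41. The first step of the Ft1 group depended on the scaling, since its FPKM sum was 62.3 ± 35.4 in green fruit and 50.5 ± 7.12 at discoloration. The CPM sums are not corrected for gene length, so they do not rank the groups.

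Within the Ft3 group, Ft3-D held 88.7, 54.4 and 62.6% of the FPKM in green fruit, 11.1, 60.5 and 60.3% at discoloration, and 14.2, 5.76 and 13.7% at initial maturity. Ft3-E held 2.31, 2.63 and 0% in green fruit, 70.3, 12.6 and 13.0% at discoloration, and 77.8, 87.4 and 78.1% at initial maturity. The discoloration library that stands apart thus had the Ft3-E share nearest to initial maturity. The FPKM sum of the group at discoloration was 58.3 ± 1.53 (SD, n = 3), although its make-up differed this much between libraries.

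Within the Ft8 group, Ft8-B held 61.3 ± 15.7% and Ft8-C 34.6 ± 13.1% in green fruit, with 4.13 ± 2.71% for Ft8-A. At discoloration Ft8-A held 77.8 ± 14.4%, and at initial maturity 99.9 ± 0.218% (SD, n = 3). Ft1-B held 57.4 to 75.3% of its pair in green fruit, 67.2 to 71.4% at discoloration and 67.7 to 80.2% at initial maturity.

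**Figure D4:**
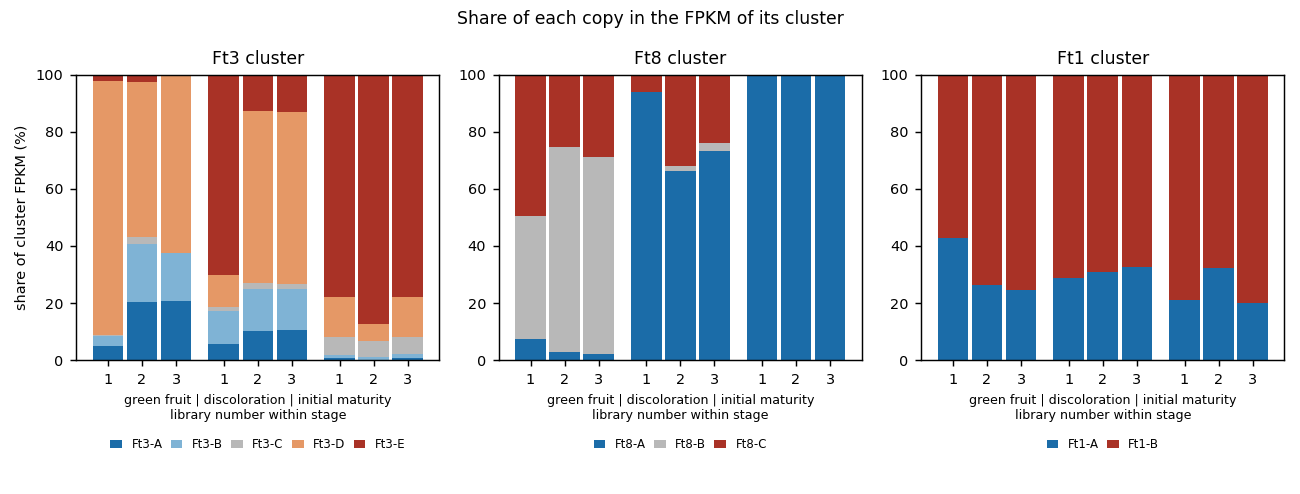
Share of each copy in the summed FPKM of its group, in percent, one bar per library, ordered green fruit, discoloration and initial maturity with libraries 1 to 3 in each. Ft3-E takes 77.8 to 87.4% of the Ft3 bars and Ft8-A at least 99.6% of the Ft8 bars at initial maturity, while both Ft1 copies are present in all 9 bars.

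Chitinase models beside the groups add to this layout. A pair of short models with chitinase matches precedes Ft3-A on the same strand, FtPinG0004181900.01 (357 bases, matching endochitinase PR4) and FtPinG0004181700.01 (279 bases, matching chitinase 6). They had 0 to 5 counts in any library and did not pass the filter. Past Ft8-C lies a further basic endochitinase, FtPinG0002342400.01, at 444100 to 445054 on the plus strand. It had 6, 16 and 5 counts in green fruit, 30, 28 and 29 at discoloration, and 18, 15 and 17 at initial maturity. In CPM it was 1.38 ± 0.14 at discoloration against 0.206 ± 0.106 in green fruit, a log2 fold change of 2.68 ± 0.40 (edgeR adjusted p = 0.00102). Initial maturity over discoloration was -0.37 ± 0.37 (edgeR adjusted p = 0.461).

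Of 7 tested genes of other families among the nearest on either side of the groups, 1 was called higher and 4 lower at discoloration over green fruit, where 19.5% of all genes were called higher and 19.9% lower. FtPinG0004180600.01, matching a CLIP-associated protein of microtubules, lies past Ft3-E and fell by 1.39 ± 0.25 at discoloration over green fruit (edgeR adjusted p = 0.0026). FtPinG0002342100.01, matching a peptidyl-prolyl isomerase, lies past that further endochitinase and had a log2 fold change of -0.01 ± 0.23 (edgeR adjusted p = 0.984) in the same comparison. Beside the Ft1 pair, FtPinG0006446400.01, matching a chloroplast glutaredoxin, fell by 0.70 ± 0.20 (edgeR adjusted p = 0.0201), and FtPinG0006446600.01, matching YUCCA8 of auxin synthesis, rose by 1.68 ± 0.58 (edgeR adjusted p = 0.0444).

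On the other side of that pair, FtPinG0006445700.01, matching tetraspanin-18, fell by 1.29 ± 0.41 (edgeR adjusted p = 0.0344) at discoloration over green fruit. FtPinG0006445300.01, which has no Swiss-Prot name, fell by 0.76 ± 0.23 (edgeR adjusted p = 0.0285). FtPinG0002343100.01 before Ft8-A, matching a LON and RING finger protein, was at 0.48 ± 0.19 and did not pass (edgeR adjusted p = 0.0758). The other neighbours, FtPinG0004180300.01 and FtPinG0002343300.01, had 0 to 2 counts in a library and were not tested.

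The 10 copies held a minor part of the summed FPKM of chitinase-named models. They held 20.0, 6.87 and 7.07% of the FPKM of all 23 chitinase-named models in green fruit, 26.5, 25.9 and 23.5% at discoloration, and 5.46, 1.29 and 5.76% at initial maturity. That sum includes FtPinG0000874100.01, matching chitinase-like protein 1, with means of 1015 FPKM in green fruit and 178.4 at discoloration. It also includes the short model FtPinG0008881000.01, with means of 136.5 FPKM at discoloration and 12429 at initial maturity. The share of the copies without these models was not computed. Among the 13 others, 7 passed the filter, of which 5 were called higher and 1 lower at discoloration over green fruit, 1 and 1 at initial maturity over discoloration, and 3 and 1 at initial maturity over green fruit. For all genes the shares called were 19.5% higher and 19.9% lower, 16.0% and 20.4%, and 28.3% and 32.5%. The median log2 change of the 7 was 1.63, -0.37 and 0.80, against -0.04, -0.02 and -0.06 for all genes.

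Most of the initial maturity FPKM came from FtPinG0008881000.01 on chromosome 6, whose best match is an endochitinase but whose model is only 295 bases long, shorter than any of the 10 copies. It had 1, 84 and 0 counts in green fruit, 691, 1058 and 1218 at discoloration, and 53629, 155927 and 52376 at initial maturity. The log2 fold change was 6.25 ± 1.34 at discoloration over green fruit (edgeR adjusted p = 0.00582) and 6.90 ± 1.35 at initial maturity over discoloration (edgeR adjusted p = 0.00462). In green fruit and at discoloration the most abundant was FtPinG0000874100.01, matching chitinase-like protein 1, a protein of cellulose deposition in Arabidopsis rather than of chitin breakdown. It averaged 223.7 ± 13.4 CPM at discoloration against 614.9 ± 347 in green fruit, and fell by 1.46 ± 0.43 (edgeR adjusted p = 0.0246).

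Counts for 4 lists of other defence proteins follow, to be set beside the same shares of all genes: 19.5% higher and 19.9% lower at discoloration over green fruit, 16.0% and 20.4% at initial maturity over discoloration, and 28.3% and 32.5% at initial maturity over green fruit. The medians of all genes were -0.04, -0.02 and -0.06. Of 49 β-1,3-glucanases tested out of 77, which cut the glucan of fungal walls and also plant callose, 8 were called higher and 16 lower at discoloration over green fruit. At initial maturity over discoloration 6 were called higher and 12 lower, and at initial maturity over green fruit 9 and 24. The medians were -0.57, -0.52 and -0.99. FtPinG0000977700.01 among them averaged 67.3 ± 3.14 CPM at discoloration against 7.58 ± 4.63 in green fruit, and rose by 3.15 ± 0.71 (edgeR adjusted p = 0.00724). FtPinG0006157200.01, matching glucan endo-1,3-beta-glucosidase 3, averaged 62.5 ± 3.84 CPM at discoloration against 74.7 ± 15.4 in green fruit, a difference of -0.26 ± 0.34 that did not pass (edgeR adjusted p = 0.575).

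Thaumatin-like proteins and osmotins permeabilise fungal membranes. Of 25 tested out of 36, 7 were called higher and 6 lower at discoloration over green fruit, 5 and 2 at initial maturity over discoloration, and 11 and 3 at initial maturity over green fruit (medians 0.44, 0.46 and 0.94). FtPinG0003648700.01, matching thaumatin-like protein 1, averaged 1.40 ± 0.55 CPM in green fruit, 41.2 ± 4.49 at discoloration, then 206.6 ± 56.0 at initial maturity. It rose by 4.86 ± 0.36 in the first step (edgeR adjusted p = 3.23e-05) and by 2.32 ± 0.31 in the second (edgeR adjusted p = 0.000892). FtPinG0003593600.01, matching a thaumatin-like protein, averaged 141.1 ± 10.5 CPM at discoloration against 111.7 ± 36.1 in green fruit and did not pass in that step (0.34 ± 0.23, edgeR adjusted p = 0.279). Over both steps it rose by 0.95 ± 0.24 (edgeR adjusted p = 0.0066).

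Of 9 genes tested out of 34 with PR-1, PR-4, wound-induced or hevein matches, 2 were called higher and 3 lower in the first step, 2 and 1 in the second, and 3 and 2 over both (medians 0.42, -0.06 and 0.11). FtPinG0002923200.01, matching pathogenesis-related protein 1B, averaged 78.4 ± 53.1 CPM at discoloration against 9.38 ± 3.68 in green fruit, and rose by 3.06 ± 0.73 (edgeR adjusted p = 0.00986). FtPinG0001362700.01, matching wound-induced protein 1, averaged 51.2 ± 0.75 CPM at discoloration against 38.4 ± 1.02 in green fruit and rose by 0.42 ± 0.12 (edgeR adjusted p = 0.0193). It fell by 0.68 ± 0.12 at initial maturity over discoloration (edgeR adjusted p = 0.00276).

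Chitin receptors bind chitin fragments through LysM domains. Of 11 tested out of 13, 5 were called higher and 1 lower at discoloration over green fruit, 2 higher at initial maturity over discoloration, and 2 higher and 2 lower at initial maturity over green fruit (medians 0.48, -0.09 and 0.28). FtPinG0007582000.01, matching LysM receptor-like kinase 4, rose by 0.63 ± 0.20 in the first step (edgeR adjusted p = 0.0291). FtPinG0001066800.01, matching a LysM protein anchored at the membrane, rose by 0.82 ± 0.26 (edgeR adjusted p = 0.0351).

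The genes most like the leading copy of each group were taken by Pearson's r of log2(CPM + 1) over the 9 libraries, as a description only. All points share libraries and stages, so r mostly reflects the stage pattern. For Ft3-E they were FtPinG0003406100.01 (r = 0.9987, matching a yeast vacuolar membrane protein), FtPinG0002593200.01 (0.9956, a WD repeat protein) and FtPinG0001479200.01 (0.9956, a peroxisomal acyl-CoA oxidase of fatty acid breakdown). For Ft8-A they were FtPinG0007416400.01 (r = 0.9942, a MATH domain protein), FtPinG0000544900.01 (0.9925, a probable aminotransferase) and FtPinG0009637600.01 (0.9906, a plastid adenine nucleotide transporter). For Ft1-B they were FtPinG0009559900.01 (r = 0.9914, the ethylene-responsive factor RAP2-4), FtPinG0009038200.01 (0.991, a serine carboxypeptidase-like protein) and FtPinG0006172900.01 (0.9869, a diacylglycerol kinase). Among the copies, Ft3-E and Ft8-A, on different chromosomes, had an r of 0.978, and Ft1-A and Ft1-B one of 0.956.

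Deposited genotype calls were listed at sites within 7 of the 10 copies. A homozygous alternative call in all 9 libraries was listed at 1 SNP in Ft3-A, 3 SNPs in Ft3-B, and 2 SNPs and 2 InDels in Ft3-D. A further Ft3-B SNP site, at 57140409, was called heterozygous in 8 libraries and homozygous alternative in 1. No Ft8 or Ft1 copy had a site with a homozygous alternative call in all 9 libraries, and Ft3-C, Ft3-E and Ft8-B had no listed site at all. Over the whole tables, 22.3% of 83860 SNP sites and 64.7% of 23098 InDel sites had a homozygous alternative call in all 9 libraries. Sites can be listed only where reads cover them, and how far this differs between copies was not tested.

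In the authors' deposited table, whose test no header or label names, 5, 6 and 8 of the copies had an adjusted p under 0.05 in the 3 comparisons. Each of these was also called here, where the counts were 7, 6 and 9. The copies called here only were Ft3-E and Ft1-A at discoloration over green fruit, with adjusted p of 0.0559 and 0.0956 in the authors' deposited table, and Ft1-B at initial maturity over green fruit, with 0.0686 in the authors' deposited table.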

How the data were processed

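Whole-seed RNA gave 9 libraries, 3 per stage. Libraries were made with the TruSeq RNA kit, per the labels' protocols, which does not mark strand. Bowtie2 2.0.6 and TopHat2 2.0.12 are named in the submitters' processing notes. No source used here names the counting program, genome build or annotation release, or says how reads matching several genes were treated, so counts of near-identical copies are uncertain.

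The authors deposited raw counts per gene and FPKM values, per the file headers. Each of the 82 nonzero FPKM values of the copies matched its count per gene length and library total to a relative 0.001, so FPKM carries no correction for composition. The authors' deposited gene table gives names, positions, a scaled mean signal per stage (not used in results), log2 ratios of the earlier over the later stage, and p-values with adjusted p-values. The deposited variant tables also hold 9 columns of no sample here, which were not used.

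Counts were tested with edgeR 4.0.16 (glmQLFit, TMM, filterByExpr with a minimum count of 10) and limma 3.58.1 in R 4.3.3. A single model without a replicate term held the 9 libraries. The filter kept 23631 of 33931 genes, over which p was adjusted by Benjamini-Hochberg (threshold 0.05). The biological coefficient of variation was 0.289. An SE is |log2 fold change| over the root of its F statistic. Ratios of neighbouring copies were tested by exact permutation in Python 3.11.15. Alternatives were DESeq2 1.42.0, library totals, no filter, a replicate block, limma on log2(FPKM + 1), leaving out each library, adding close libraries together and leaving out those that stand apart. The fit was checked on simulated counts.

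All copies are named. Besides them, the rule named the 2 nearest gene models on each side of a group, the 2 most abundant tested genes of each list, and the 3 genes most like the leading copy of a group. The members and lists were chosen with earlier results of these data known.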

Additional observations from a re-analysis of the deposited data

How the results depend on the processing

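Of 636 alternative values of single copies, 560 kept their direction and side of the threshold, 29 newly passed, 36 no longer passed and 11 turned sign. Signs turned for Ft1-A and Ft1-B at discoloration over green fruit with library totals (-0.13 and -0.37) and with limma on FPKM (-0.056 and -0.069). The others that turned were interval differences, none of which had passed: Ft3-E (-4.40 to 0.50 on leaving out 1 library, positive without discoloration 1) at 0.91 with limma, Ft3-D (-2.75 to 0.075, positive without discoloration 2, and 0.030 without discoloration 3) at 0.26 with close libraries added together, and Ft8-A at 0.17 and Ft8-C at 0.65 with limma.

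All genes called at discoloration over green fruit numbered 9326, and 17967 with library totals, 2877 with close libraries added together, 17730 without the libraries that stand apart and 17988 with limma on FPKM, with 6735 to 12436 on leaving out 1 library. At initial maturity over discoloration there were 8608, and 1663 with close libraries added together, 16195 without those that stand apart and 5325 to 12190 on leaving out 1 library. At initial maturity over green fruit there were 14361, and 9183 with close libraries added together. Copies called at initial maturity over discoloration numbered 6, and 2 with close libraries added together. Interval differences of copies called numbered 3, and 5 with DESeq2, 1 with close libraries added together, 8 without those that stand apart, 5 with limma and 2 to 5 on leaving out 1 library. The cause was not tested.

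Same-numbered libraries of different stages deviated together with correlations of -0.151 to 0.186, so a shared number was not taken to pair libraries. With the replicate block, 6, 6 and 9 copies were called, Ft1-A at discoloration over green fruit being lost (adjusted p = 0.0549). Copy ratios passed for 6 of 7 pairs. Both pairs with Ft8-B are among them and rest on the count added at initial maturity, where Ft8-C over Ft8-B has no measurement. With the replicate block 1 pair passed, where the smallest possible p is 0.0278. With close libraries added together 0 passed, where the smallest possible p of 0.0667 cannot pass. DESeq2 gave no adjusted p for Ft3-D. Near-zero counts of Ft3-C in green fruit and of Ft8-B and Ft8-C late limit their folds.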
